A study of Mus musculus with 8 samples.

Results

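MHC class I and its light chain were followed as 8 mouse genes in serum exosome RNA: B2m, the heavy chain genes H2-K1, H2-D1, H2-T23, H2-T24 and H2-M3, and the peptide transporter genes Tap1 and Tap2. They were chosen by name as the class I heavy chains, light chain and transporter subunits to be described, and all 8 were found among the 52016 genes listed, of which 31300 are mouse and 20716 are canine. The samples were 8 libraries of RNA from exosomes enriched out of pooled serum of NCr nu/nu mice, an athymic nude strain that lacks most mature T cells. The OSCA-40 and OSCA-32 groups were sampled at week 8 after 10 µl with 100000 cells of that canine osteosarcoma cell line had been injected into the tibia, the PBS group at week 8 after 10 µl of PBS alone, and the week 0 group before any injection, from serum pooled over all mice. Each group has 2 libraries. Nothing in the labels says that the 2 come from separate animals, so each p-value measures only variation among libraries, which may be technical.

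A class I molecule is a heavy chain held at the cell surface by beta-2 microglobulin, the light chain encoded by B2m, with a short peptide between the helices of the heavy chain. Tap1 and Tap2 encode the subunits of the transporter that carries peptides from the cytosol into the endoplasmic reticulum, where the complex is assembled. H2-K1 and H2-D1 encode the classical chains, which show peptides to CD8 T cells and are read by NK cells, the cytotoxic lymphocytes that nude mice keep. H2-T23 encodes Qa-1, a non-classical chain whose ligand for NK cell receptors is a peptide from the leaders of classical chains. H2-M3 encodes a non-classical chain that binds formylated peptides. H2-T24 encodes a further non-classical heavy chain of the T region.

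All the heavy chain and transporter genes lie on chromosome 17 and B2m on chromosome 2, in GENCODE mouse release 21 on GRCm38. B2m spans chr2:122147686-122153083 on the plus strand. H2-K1 spans chr17:33996017-34000347 on the minus strand, and Tap1 at chr17:34187553-34197225 and Tap2 at chr17:34203527-34216321 both lie on the plus strand. H2-D1 spans chr17:35262730-35267499 on the plus strand. H2-T24 spans chr17:36005695-36020560 and H2-T23 spans chr17:36029773-36032855, both on the minus strand, and H2-M3 spans chr17:37270220-37274484 on the plus strand. The values cover each gene as a whole, exons of all its annotated transcripts together.

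The heavy chains resemble each other so closely that reads from part of 1 gene can be assigned to another, and the stretches below are shown because they set how far a value belongs to a single gene. Both come from exon 4 of the coding sequence, which encodes the alpha-3 domain, the part that meets B2m. In the first, capitals mark the 39 bases found in all 5 heavy chain genes.
H2-D1 chr17:35265827-35265971 plus strand and H2-T23 chr17:36030910-36031054 minus strand, 145 bases alike: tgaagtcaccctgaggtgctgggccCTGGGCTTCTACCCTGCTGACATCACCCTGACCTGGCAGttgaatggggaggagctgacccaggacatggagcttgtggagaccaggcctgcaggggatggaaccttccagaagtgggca
H2-K1 chr17:33997343-33997433 minus strand and H2-D1 chr17:35265911-35266001 plus strand, 91 bases alike: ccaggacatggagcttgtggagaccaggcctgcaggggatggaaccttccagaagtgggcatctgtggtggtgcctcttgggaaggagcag

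Over whole transcripts, none of the 830 distinct 31-base words of B2m occurs in another mouse gene. The share found in another gene was 22.8% for H2-K1, 26.9% for H2-D1, 25.8% for H2-T23, 6.61% for H2-T24, 4.62% for H2-M3, 4.09% for Tap1 and 14.3% for Tap2. The closest partner of H2-K1 was H2-D1, which holds 11.1% of its words. The shared words were spread over 1326 other genes for H2-D1, 1255 for H2-T23, 1104 for H2-T24 and 38 for H2-K1. The shared Tap2 words fell mostly in Gm15821, which holds 11.3% of all Tap2 words. H2-K1, H2-D1 and H2-T23 are therefore uncertain where the authors' counting could split such reads. B2m is free of this among mouse genes, but its overlap with canine genes was not examined. Class I genes also differ between mouse strains. The sources used here do not give the H2 haplotype of the NCr nu/nu mice, and these sequences are those of the reference genome.

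**Figure D1:**
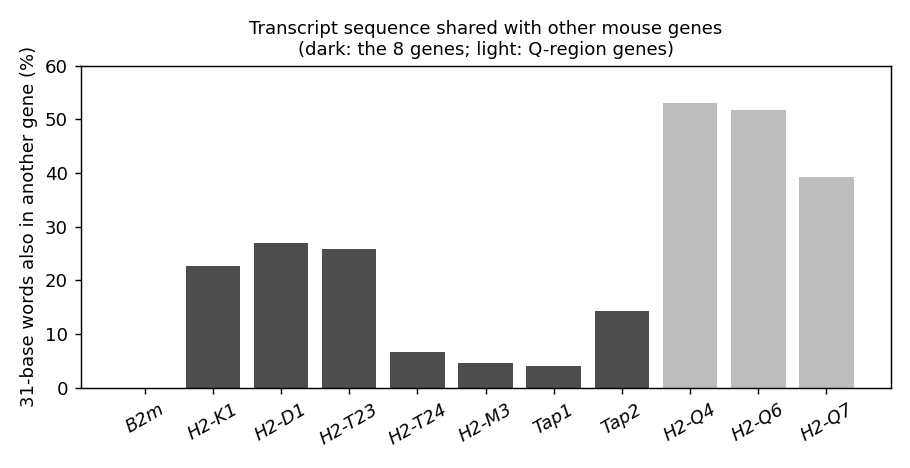
Share of each gene's distinct 31-base words that also occur in a transcript of another mouse gene, in percent (y axis), for the 8 genes (dark bars) and H2-Q genes (light bars). B2m stands at 0, H2-K1, H2-D1 and H2-T23 between 22.8% and 26.9%, and H2-Q4 at 53.0%.

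Promoters are shown for B2m and the classical heavy chains, that is, the light chain that passed in OSCA-40 and the heavy chains it is set against in the within-library ratio. They are the 250 bases before the gene's start in RefSeq on GRCm38.p6, with H2-K1 at the first of its 2 listed starts. RefSeq entries were matched for 6 of the 8 genes, and H2-T24 and Tap2 are the others. Capitals mark every match, on either strand, to the palindromic kappaB site, the interferon element, the IRF repeat, the CRE-like motif and the CCAAT box. The IRF repeat is a pair of GAAA words with any 2 bases between them. The CRE-like motif is TGACG. In the H2-K1 and H2-D1 lines the first run of capitals is the kappaB site and the next is the interferon element.
B2m chr2:122147437-122147686 plus strand: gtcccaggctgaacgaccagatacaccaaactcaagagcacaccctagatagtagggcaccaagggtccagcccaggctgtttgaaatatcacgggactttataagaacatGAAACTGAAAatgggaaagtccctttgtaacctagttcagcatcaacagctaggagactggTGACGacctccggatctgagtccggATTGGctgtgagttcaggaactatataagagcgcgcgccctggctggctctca
H2-K1 chr17:34000348-34000597 minus strand: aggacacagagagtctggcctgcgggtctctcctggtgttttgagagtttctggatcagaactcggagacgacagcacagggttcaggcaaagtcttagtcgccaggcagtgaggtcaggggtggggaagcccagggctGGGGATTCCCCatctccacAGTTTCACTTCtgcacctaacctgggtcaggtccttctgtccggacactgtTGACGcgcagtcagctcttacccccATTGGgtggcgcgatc
H2-D1 chr17:35262844-35263093 plus strand: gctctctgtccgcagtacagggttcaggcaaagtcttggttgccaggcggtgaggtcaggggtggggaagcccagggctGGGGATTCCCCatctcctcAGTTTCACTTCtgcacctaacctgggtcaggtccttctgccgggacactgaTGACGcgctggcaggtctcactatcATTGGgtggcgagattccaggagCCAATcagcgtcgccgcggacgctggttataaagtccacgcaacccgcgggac

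H2-K1 and H2-D1 hold the palindromic kappaB site, present in 0.0304% of 32851 promoters of this length, and the interferon element, present in 0.0426%. The B2m window holds neither of these exact strings, and has the IRF repeat, present in 2.98%. Only these letters were searched for the kappaB site and the interferon element, so the B2m window may hold other forms of them. All 3 windows hold the CRE-like motif, present in 17.8%, and the CCAAT box, present in 33.8%. The motifs were chosen after the sequences had been read, the motifs do not overlap each other here, and a match is a description of letters, not of binding.

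The deposited values are whole numbers that behave like TPM over both species, with nearly equal sums per library. Whether they are corrected for transcript length was not settled: over 21474 protein-coding mouse genes, Spearman's rho with the longest transcript was 0.189 to 0.227 by library. Levels of different genes are therefore set side by side only on the reading that they are TPM. Libraries summed to 977106 to 989183 and the depth behind them is unknown. Mouse genes took 31.6% and 29.3% of the OSCA-40 libraries, 55.3% and 56.7% of the OSCA-32 libraries, 85.3% and 84.8% of the PBS libraries and 83.9% and 82.6% of the week 0 libraries. The median tested mouse gene was accordingly 1.53 lower on the log2 scale in OSCA-40 than in PBS exosomes as deposited. Comparisons were therefore made on scaled values, divided by a factor that sets the bulk of mouse genes level, and say whether a gene changed relative to that bulk. On the scaled axis 1 deposited unit was worth 2.95 to 3.07 in OSCA-40, 1.41 to 1.45 in OSCA-32, 0.948 to 0.961 in PBS and 0.982 to 1 in week 0 libraries. A gene was tested where it reached 10 in at least 2 libraries, on log2(scaled value + 1), and passed at a limma Benjamini-Hochberg adjusted p under 0.05. B2m, H2-K1, H2-D1, H2-T23 and H2-T24 were tested, and H2-M3, Tap1 and Tap2 were too low.

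As deposited, B2m, H2-D1, H2-T23 and H2-T24 were listed above the typical mouse gene in every library, and the other 4 ranged around it. Tap1 was listed at 0 in 1 OSCA-40 library. The median protein-coding mouse gene had a deposited value of 2 and 1 in OSCA-40, 3 and 3 in OSCA-32, 5 and 5 in PBS and 5 and 5 in week 0 libraries. As a gauge of background, 120 vomeronasal receptor genes were taken, which cells that feed serum RNA should mostly not use. They had a median of 1 in each tumour-bearing library and 2 in each PBS and week 0 library. Their 90th percentile reached 4.1, but 3 to 6 of them in each library exceeded 10, and the highest reached 56 and 58 in OSCA-40, 131 and 123 in OSCA-32, 164 and 154 in PBS and 202 and 199 in week 0 libraries. A value above the gauge's median is therefore no proof that a gene is used.

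**Figure D2:**
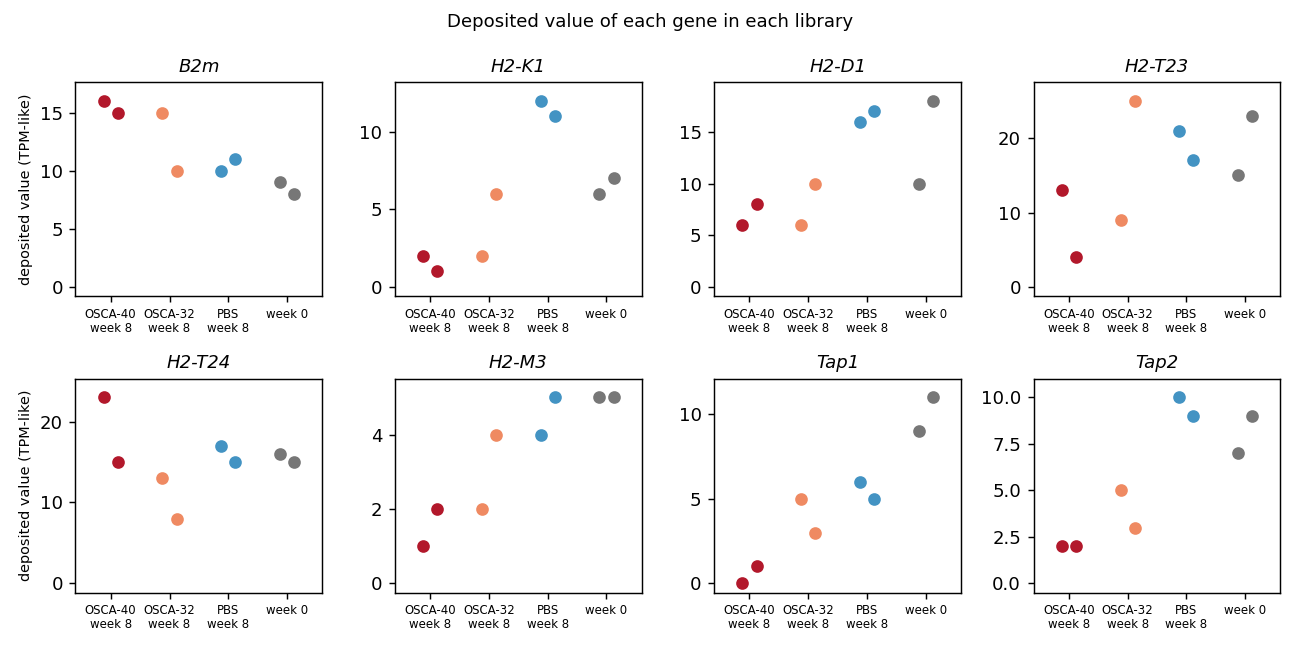
Deposited value (TPM-like, y axis, a scale for each gene) of the 8 genes in each of the 8 libraries, by group; each point is 1 library. For B2m both OSCA-40 libraries lie above both PBS libraries, and the first OSCA-32 library ties the lower OSCA-40 library at 15. For H2-K1, H2-D1 and Tap2 every tumour-bearing library lies below both PBS libraries, and for Tap1 an OSCA-32 and a PBS library tie at 5. As deposited the median tested mouse gene also differs from PBS, by -1.53 in OSCA-40 and -0.56 in OSCA-32 on the log2 scale.

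B2m, the light chain, rose in exosomes of OSCA-40 mice against PBS once the bulk of mouse genes was set level. Its deposited value was 16 and 15 in OSCA-40, 15 and 10 in OSCA-32, 10 and 11 in PBS and 9 and 8 in week 0 libraries. Even before scaling, then, both OSCA-40 libraries lay above both PBS libraries, while the OSCA-32 libraries overlapped PBS. Ranked within each library among protein-coding mouse genes, which needs no scaling, B2m stood at percentile 95.6 and 95.6 in OSCA-40, 90.1 and 82.7 in OSCA-32, 73.5 and 75.9 in PBS and 72.1 and 68.5 in week 0 libraries. The groups stood in this order without overlap. What share of all mouse genes separate by group, here and for the genes below, was not counted. On the scaled axis B2m averaged 46.6 ± 0.803 in OSCA-40, 18.0 ± 5.41 in OSCA-32, 10.0 ± 0.573 in PBS and 8.43 ± 0.806 in week 0 libraries (SD, n = 2 each).

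OSCA-40 exceeded PBS by 2.11 ± 0.25 on the log2 scale (SE; 95% limits 1.53 to 2.69), with a limma adjusted p of 0.00297. As deposited the difference was 0.51 and did not pass (adjusted p = 0.0772). OSCA-32 exceeded PBS by 0.75 (95% limits 0.17 to 1.34), which did not pass (adjusted p = 0.324). The lines themselves differed by 1.36 ± 0.25 with OSCA-40 higher (limma adjusted p = 0.0396), against 0.31 as deposited (adjusted p = 0.278). That call ended when any of 7 of the 8 libraries was left out, with adjusted p up to 0.127, and under 4 other settings, with adjusted p of 0.0576 to 0.0679. The mean of both lines exceeded PBS by 1.43 ± 0.21 (limma adjusted p = 0.0122), against 0.35 as deposited (adjusted p = 0.145), and the call ended when either PBS library was left out (adjusted p = 0.107 without the first and 0.0871 without the second). PBS at week 8 differed from week 0 by 0.23 ± 0.25, with an adjusted p of 1. In bulk exosome RNA, more vesicles from cells that use a gene and more of its RNA per vesicle cannot be told apart.

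H2-K1, a classical heavy chain, was low in the tumour-bearing groups as deposited and did not pass once scaled. Its deposited value was 2 and 1 in OSCA-40, 2 and 6 in OSCA-32, 12 and 11 in PBS and 6 and 7 in week 0 libraries. Both OSCA-40 libraries lay at or near the vomeronasal background. No tumour-bearing library overlapped PBS, and how many other genes separate so was not counted. As deposited the median tested mouse gene also differed from PBS, by -1.53 in OSCA-40 and -0.56 in OSCA-32 on the log2 scale. H2-K1 reached 10 in the 2 PBS libraries alone, so it was tested only through the group where it was high, and its difference from PBS is a description that supports nothing further. Scaled, it averaged 4.48 ± 2.00 in OSCA-40, 5.70 ± 3.95 in OSCA-32, 10.98 ± 0.787 in PBS and 6.44 ± 0.620 in week 0 libraries (SD, n = 2 each). The OSCA-40 difference from PBS was -1.18 ± 0.56 (95% limits -2.49 to 0.14, limma adjusted p = 0.287), against -2.36 as deposited (adjusted p = 0.00383). As deposited 6726 of all 7872 tested genes passed in that comparison. The OSCA-32 difference was -0.98 ± 0.56 (adjusted p = 0.626). By rank among protein-coding genes H2-K1 stood at percentile 57.9 and 34.0 in OSCA-40 and 32.3 and 69.4 in OSCA-32 libraries. PBS libraries had it at 78.6 and 75.9 and week 0 libraries at 59.4 and 64.4.

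H2-D1, the other classical heavy chain of the reference strain, gave a direction that depended on the scale. Its deposited value was 6 and 8 in OSCA-40, 6 and 10 in OSCA-32, 16 and 17 in PBS and 10 and 18 in week 0 libraries. The median tested mouse gene differed from PBS by -1.53 in OSCA-40 and -0.56 in OSCA-32 on the log2 scale as deposited. For H2-D1 every tumour-bearing library was below every PBS library, and the OSCA-32 libraries met the lower week 0 library at 10. Scaled, it averaged 21.1 ± 4.85 in OSCA-40, 11.4 ± 3.84 in OSCA-32, 15.7 ± 0.515 in PBS and 13.8 ± 5.43 in week 0 libraries (SD, n = 2 each). The OSCA-40 difference from PBS was 0.38 ± 0.35 scaled (limma adjusted p = 0.589) and -1.16 as deposited (adjusted p = 0.0159), so its sign turned with the scaling. As deposited 6726 of all 7872 tested genes passed in that comparison. The OSCA-32 difference was -0.46 ± 0.35 (adjusted p = 0.738). By rank among protein-coding genes H2-D1 stood at percentile 86.3 and 91.0 in OSCA-40 and 70.9 and 82.7 in OSCA-32 libraries. PBS libraries had it at 85.1 and 85.9 and week 0 libraries at 75.0 and 87.5.

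H2-T23, the Qa-1 heavy chain, did not pass, and its scaled values differed more between the libraries of each tumour group than between group means. Its deposited value was 13 and 4 in OSCA-40, 9 and 25 in OSCA-32, 21 and 17 in PBS and 15 and 23 in week 0 libraries. The OSCA-32 libraries alone spanned most of the range. Scaled, the OSCA-40 mean was 25.3 ± 18.4, the OSCA-32 mean 24.2 ± 15.8, the PBS mean 18.1 ± 2.88 and the week 0 mean 18.8 ± 5.37 (SD, n = 2 each). The OSCA-40 difference from PBS was 0.26 ± 0.60 scaled (limma adjusted p = 0.850) and -1.26 as deposited (adjusted p = 0.0759). By rank among protein-coding genes H2-T23 stood at percentile 94.5 and 78.9 in OSCA-40 and 81.3 and 94.4 in OSCA-32 libraries. PBS libraries had it at 89.6 and 85.9 and week 0 libraries at 84.8 and 90.8.

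H2-T24, a non-classical heavy chain, rose with B2m in OSCA-40 exosomes on the same scale. Its deposited value was 23 and 15 in OSCA-40, 13 and 8 in OSCA-32, 17 and 15 in PBS and 16 and 15 in week 0 libraries. As deposited the OSCA-40 and PBS libraries overlapped, and the OSCA-32 libraries lay lowest. By rank among protein-coding genes it stood at percentile 97.1 and 95.6 in OSCA-40, 88.1 and 77.5 in OSCA-32, 86.2 and 83.4 in PBS and 86.0 and 84.4 in week 0 libraries, so only OSCA-40 stood apart on that measure. Scaled, it averaged 56.9 ± 15.4 in OSCA-40, 15.1 ± 5.35 in OSCA-32, 15.3 ± 1.51 in PBS and 15.4 ± 0.893 in week 0 libraries (SD, n = 2 each).

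The OSCA-40 difference of H2-T24 from PBS was 1.81 ± 0.29 (95% limits 1.12 to 2.49, limma adjusted p = 0.0112), against 0.19 as deposited (adjusted p = 0.531). Without the first PBS library it was 1.91 with an adjusted p of 0.0560, and without the second it was 1.71 with an adjusted p of 0.0816. OSCA-32 differed from PBS by -0.05 ± 0.29 (adjusted p = 0.973). OSCA-40 exceeded OSCA-32 by 1.86 ± 0.29 (limma adjusted p = 0.0235), and by 0.80 as deposited (adjusted p = 0.0446). That call ended without any of 6 of the 8 libraries, with adjusted p between 0.0329 and 0.0933 over all 8.

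**Figure D3:**
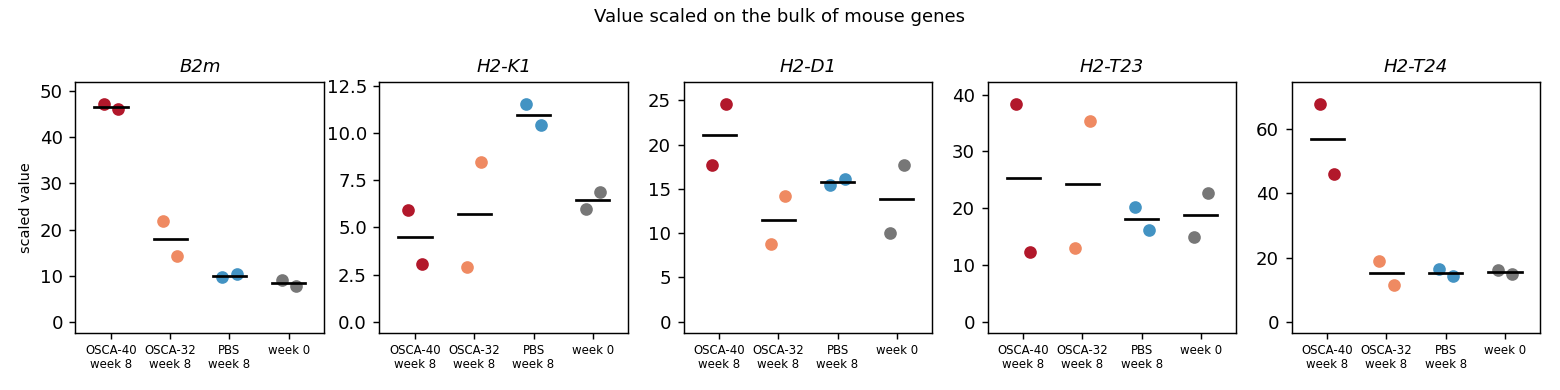
Scaled value (y axis, relative to the bulk of mouse genes, a scale for each gene) of the 5 tested genes in each library; points are libraries and bars are group means. The OSCA-40 libraries stand above all others for B2m and H2-T24, and the H2-T23 libraries of both tumour groups spread widely.

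H2-M3, which presents formylated peptides, was listed at 1 and 2 in OSCA-40, 2 and 4 in OSCA-32, 4 and 5 in PBS and 5 and 5 in week 0 libraries, near the median gene throughout. Its scaled mean was 4.54 in OSCA-40, 4.28 in OSCA-32, 4.29 in PBS and 4.96 in week 0 libraries, closer to each other than 1 deposited unit is worth in an OSCA-40 library. Tap1 was listed at 0 and 1 in OSCA-40, 5 and 3 in OSCA-32, 6 and 5 in PBS and 9 and 11 in week 0 libraries. Its groups did not overlap except that OSCA-32 met PBS at 5, and how many other genes separate so was not counted. Tap2 was listed at 2 and 2 in OSCA-40, 5 and 3 in OSCA-32, 10 and 9 in PBS and 7 and 9 in week 0 libraries. As deposited both transporter subunits were thus lowest in OSCA-40, where most mouse genes are low. Scaled, Tap1 averaged 1.54 in OSCA-40, 5.76 in OSCA-32, 5.25 in PBS and 9.90 in week 0 libraries, and Tap2 6.02 in OSCA-40, 5.76 in OSCA-32, 9.07 in PBS and 7.92 in week 0 libraries. Values this small step by whole units. With the filter lowered to 5 in at least 2 libraries, the OSCA-40 difference from PBS was -1.63 ± 0.66 for Tap1 (limma adjusted p = 0.288), -0.54 ± 0.32 for Tap2 (adjusted p = 0.463) and -0.02 ± 0.45 for H2-M3 (adjusted p = 0.991). None of the 3 passed in any of the 5 comparisons at that filter. By rank Tap1 stood at percentile 8.59 and 34.0 in OSCA-40, 65.5 and 45.4 in OSCA-32 and 57.3 and 49.8 in PBS libraries. Tap2 stood at 57.9 and 58.5 in OSCA-40, 65.5 and 45.4 in OSCA-32 and 73.5 and 70.1 in PBS libraries. H2-M3 stood at 33.5 and 58.5 in OSCA-40, 32.3 and 56.3 in OSCA-32 and 40.7 and 49.8 in PBS libraries.

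Counted over the 5 tested genes, 2 passed in OSCA-40 against PBS, both higher, where 5.36% of the 7655 tested mouse genes passed, 3.03% as higher and 2.33% as lower. None passed in OSCA-32 against PBS with limma, where 0.549% of the mouse genes did, and 1 of the 5 (B2m) had an unadjusted p under 0.05. For the mean of both lines against PBS, 1 passed as higher, where 3.16% of the mouse genes passed, 2.1% as higher and 1.06% as lower. In OSCA-40 against OSCA-32, 2 passed as higher, where 1.76% of the mouse genes passed, 0.797% as higher and 0.967% as lower. In PBS at week 8 against week 0, none passed with limma where 0.144% of the mouse genes did, and none had an unadjusted p under 0.05. The median difference over the 5 genes was 0.38 in OSCA-40 against PBS, beside -0.03 over all tested mouse genes, and -0.05 in OSCA-32 against PBS, beside 0.00. The comparisons against PBS share the PBS libraries, and those with OSCA-40 share its libraries.

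**Figure D4:**
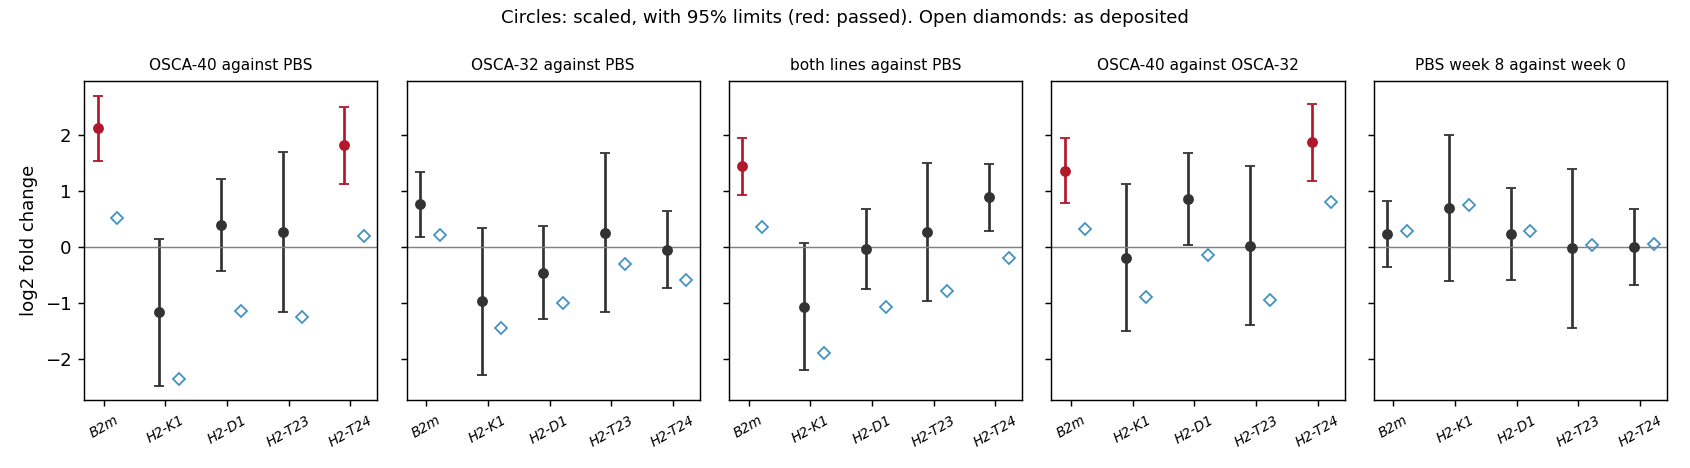
Log2 fold change (y axis) of the 5 tested genes in each of the 5 comparisons; circles are scaled values with 95% limits, red where the gene passed, and open diamonds are the values as deposited. B2m and H2-T24 stand above 0 in OSCA-40 against PBS at 2.11 and 1.81, with diamonds at 0.51 and 0.19.

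A ratio taken within a library needs no scaling. The ratio of the light chain to the classical heavy chains is given as a description, with no test, since it was chosen after the values had been seen. B2m divided by the sum of H2-K1 and H2-D1 was 2.0 and 1.67 in OSCA-40, 1.88 and 0.625 in OSCA-32, 0.357 and 0.393 in PBS and 0.563 and 0.32 in week 0 libraries. All 4 tumour-bearing libraries lay above all 4 tumour-free ones, the closest pair being 0.625 and 0.563. The mean was 1.54 ± 0.626 over the 4 tumour-bearing and 0.408 ± 0.107 over the 4 tumour-free libraries (SD), each set mixing 2 groups. Against all 5 heavy chains the ratio was 0.356 and 0.5 in OSCA-40, 0.469 and 0.189 in OSCA-32, 0.143 and 0.169 in PBS and 0.173 and 0.118 in week 0 libraries. The ratio shows unequal change and does not say which side of it changed.

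**Figure D5:**
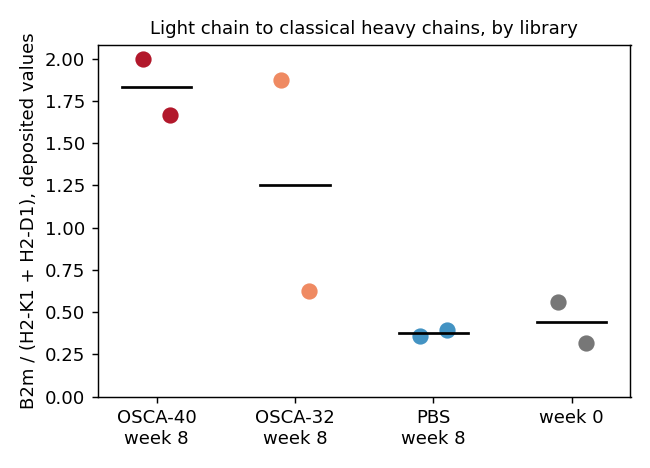
Ratio of B2m to the sum of H2-K1 and H2-D1 from deposited values (y axis, no unit) in each library, by group; each point is 1 library. The tumour-bearing libraries lie between 0.625 and 2.0 and the tumour-free ones between 0.32 and 0.563. The ratio was chosen after the values had been seen, and H2-K1 lies at or near background in OSCA-40.

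Over 8 libraries, the tested mouse genes whose scaled log2 values followed B2m most closely were Trf, encoding transferrin, with a Pearson correlation of 0.991, Fth1, the ferritin heavy chain, with 0.989, and Tmsb4x, thymosin beta 4, with 0.987. Ctla2a at 0.986 and Mrpl3 at 0.982 came next. H2-T24 was followed most closely by Gm9443 at 0.975 and Obox4-ps23 at 0.974. H2-K1 was followed most closely by Cul4a at 0.982 and Zbtb8os at 0.964. The nearest to H2-D1 were Ppia at 0.951 and Mrpl21 at 0.943, and to H2-T23 Twf2 at 0.968 and Spata1 at 0.949. Between the genes themselves the correlation was 0.892 for B2m with H2-T24, 0.378 for B2m with H2-D1, 0.0770 for B2m with H2-T23, -0.640 for B2m with H2-K1 and 0.0918 for H2-K1 with H2-D1. These are descriptions over 8 points that share 4 groups, and the best of 7654 genes is high by selection.

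Of 93 further genes on 8 lists of the class I pathway and its surroundings, 89 are in the table and 28 were tested. In OSCA-40 against PBS 1 rose (Xaf1) and 1 fell (H2-Q4), where 3.03% of the tested mouse genes rose and 2.33% fell. Of the 28, 7 had an unadjusted p under 0.05, where 19.3% of the tested mouse genes did, and the median difference was -0.13. In OSCA-32 against PBS none passed with limma, where 0.549% of the tested mouse genes did. Of the 28, 1 had an unadjusted p under 0.05 there, where 9.29% of the tested mouse genes did. For both lines against PBS H2-Q4 alone passed, as lower, where 1.06% of the tested mouse genes did. Unadjusted, 3 of the 28 were under 0.05, where 15% of the tested mouse genes were. For OSCA-40 against OSCA-32 H2-Q4 alone passed, as lower, where 0.967% of the tested mouse genes did. Unadjusted, 5 of the 28 were under 0.05, where 14.9% of the tested mouse genes were. In PBS at week 8 against week 0 none passed with limma, where 0.144% of the tested mouse genes did. Of the 28, 1 had an unadjusted p under 0.05 there, where 4.48% of the tested mouse genes did.

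H2-Q4, a non-classical heavy chain of the Q region, had the highest values of the 6 tested among 25 other heavy chains on the list. Its deposited value was 50 and 44 in OSCA-40, 169 and 184 in OSCA-32, 322 and 301 in PBS and 258 and 267 in week 0 libraries. It fell by 1.07 ± 0.08 in OSCA-40 against PBS (SE, limma adjusted p = 0.000389), opposite in sign to B2m and H2-T24. The difference of OSCA-32 from PBS was -0.23 ± 0.08 (adjusted p = 0.36). Of all its 31-base words 53.0% occur in other genes, with 19.5% of all its words in H2-Q6 and 16.8% in Gm11131. The gene behind its value is therefore uncertain. H2-Q6, listed at 16 and 18 in OSCA-40, 40 and 48 in OSCA-32, 59 and 66 in PBS and 57 and 55 in week 0 libraries, differed from PBS by -0.22 ± 0.14 in OSCA-40 (adjusted p = 0.43).

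Of the 6 peptide loading genes 2 were tested and none passed in any of the 5 comparisons. Pdia3, the disulfide isomerase of the loading complex, was listed at 5 and 9 in OSCA-40, 13 and 13 in OSCA-32, 18 and 20 in PBS and 22 and 26 in week 0 libraries, a scaled difference of 0.15 ± 0.29 in OSCA-40 against PBS. Of the 8 proteasome genes 2 were tested, and Psme1, an activator subunit, differed by 0.90 ± 0.30 without passing (adjusted p = 0.15), as did Psme2, another activator subunit, by -1.02 ± 1.14 (adjusted p = 0.66). Of the 11 regulators of class I transcription 6 were tested and none passed. Creb1, a factor that binds CRE motifs, differed by -0.60 ± 0.22 in OSCA-40 against PBS (adjusted p = 0.175).

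Hfe, which pairs with B2m as a class I-like protein of iron control, was listed at 12 and 13 in OSCA-40, 32 and 29 in OSCA-32, 42 and 43 in PBS and 37 and 40 in week 0 libraries. Its scaled OSCA-40 difference from PBS was -0.11 ± 0.14. Of the 5 class I-like genes 3 were tested and none passed, and of the 12 genes of class I receptors 3 were tested and none passed. Of the 11 class II genes only H2-DMb2 was tested, with -0.82 ± 0.34 (adjusted p = 0.23). Of 15 interferon-stimulated genes 5 were tested, with a median difference of -0.13 in OSCA-40 against PBS. Xaf1 rose by 1.20 ± 0.26 in OSCA-40 against PBS (limma adjusted p = 0.0417, and -0.42 as deposited), while the other 4 did not pass. Isg15 differed by -0.19 ± 0.22 (adjusted p = 0.68), Oasl2 by 0.60 ± 0.16 (adjusted p = 0.076), Mx1 by -0.13 ± 0.22 (adjusted p = 0.79) and Mx2 by -1.06 ± 0.34 (adjusted p = 0.135).

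Some markers of cells that could feed serum RNA were higher on the scaled axis in the same libraries as B2m. Of 10 platelet genes 3 were tested and 2 rose in OSCA-40 against PBS, where 3.03% of the tested mouse genes rose. Pf4, platelet factor 4, was listed at 85 and 69 in OSCA-40, 46 and 46 in OSCA-32, 39 and 30 in PBS and 29 and 17 in week 0 libraries, a rise of 2.78 ± 0.26 (limma adjusted p = 0.001) against 1.12 as deposited. Ppbp was listed at 9 and 8 in OSCA-40, 14 and 10 in OSCA-32, 7 and 9 in PBS and 7 and 6 in week 0 libraries. It reached 10 in the OSCA-32 libraries alone, so it was tested only through that group. Its rise in OSCA-40 against PBS was 1.63 ± 0.28 scaled (limma adjusted p = 0.0136), against 0.070 as deposited. The scaled platelet sum was 360 and 319 in OSCA-40, 144 and 129 in OSCA-32, 108 and 84.3 in PBS and 87 and 73.7 in week 0 libraries. As deposited the platelet sum was 122 and 104 in OSCA-40 and 112 and 89 in PBS libraries, which overlap. Pf4 alone gave 85 and 69 of the OSCA-40 sums. Itga2b, the other platelet gene tested, was listed at 11 and 8 in OSCA-40 and 29 and 18 in PBS libraries. Its scaled difference between these groups was 0.36 ± 0.31, which did not pass (limma adjusted p = 0.576). The scaled erythroid sum was 737 and 835 in OSCA-40, 368 and 386 in OSCA-32, 288 and 317 in PBS and 436 and 464 in week 0 libraries. As deposited it was lower in OSCA-40, at 250 and 272, than in PBS libraries, at 300 and 334. Hba-a2 alone gave 194 and 196 of the OSCA-40 sums and 184 and 189 of the PBS sums. Of 5 erythroid genes tested 1 rose in OSCA-40 against PBS, beside the same 3.03% of the tested mouse genes. It was Hba-a2, an alpha globin, by 1.72 ± 0.07 scaled (limma adjusted p = 1.68e-05) and 0.047 as deposited. Hbb-bs, a beta globin, differed by 0.50 ± 0.17 and Slc4a1, the red cell anion exchanger, by -0.08 ± 0.45, and neither passed (adjusted p = 0.145 and 0.948).

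The scaled T and NK cell sum was 145 and 104 in OSCA-40, 109 and 123 in OSCA-32, 114 and 112 in PBS and 107 and 108 in week 0 libraries, and the groups overlapped. As deposited Cd3d alone gave 41 and 32 of sums of 49 and 34 in OSCA-40 libraries. In PBS libraries it gave 97 and 90 of 119 and 118, so the sum mostly follows this 1 gene. The scaled myeloid sum was 38.3 and 43.0 in OSCA-40, 30.5 and 28.3 in OSCA-32, 36.5 and 35.1 in PBS and 34 and 41.3 in week 0 libraries, with none of 8 myeloid genes high enough to test. Of 9 vesicle genes 5 were tested, and 1 fell in OSCA-40 against PBS, where 2.33% of the tested mouse genes fell. It was Cd9, a vesicle and platelet tetraspanin, by 1.20 ± 0.11 (limma adjusted p = 0.000785). The part of these markers, and of the falling mouse share, in the B2m and H2-T24 values was not tested. Whether reads of the canine light or heavy chains were listed under the mouse genes was not tested either, since canine sequences were not used here.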

How the data were processed

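Serum exosomes had been enriched with ExoQuick, RNA extracted with a SeraMir kit and stranded pico-input libraries made, per the labels' protocols. Reads had been handled with kallisto 0.43.0, Trimmomatic 0.33.0 and FastQC 0.11.5 and the builds CanFam3.1 and GRCm38.p5, all per the submitters' processing notes, with index and filters not given in the sources used. The deposited values are called counts but were treated as a score: they are whole numbers with nearly equal sums, like TPM over both species, so no count test was used.

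From them, values were scaled by an unweighted trimmed mean of log ratios (30% of ratios, 5% of levels) to the first week 0 library, over 7655 mouse genes with at least 10 in at least 2 libraries. With 217 canine genes they entered 1 limma fit (3.58.1, R 4.3.3) on log2(scaled value + 1), with 4 groups, 4 residual degrees of freedom and a variance trend. The fit was first tested on simulated data. P-values were Benjamini-Hochberg adjusted over all 7872 genes within each of 5 comparisons. Alternatives changed the scaling, filter, pseudocount, trend, groups fitted and libraries, and added a replicate block. Named genes were the 8 genes, list genes that passed or were among the 2 highest of a list, and the closest in pattern; some of these are summarised only. A result on 1 list gene is not reported here. H2-K1 and H2-D1 ratios, motifs and the vomeronasal gauge were chosen after values or sequences were seen. The genes and lists were chosen with earlier results of these data known. Sequences are from GENCODE mouse release 21 and RefSeq.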

Additional observations from a re-analysis of the deposited data

Results flagged for a closer look

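The OSCA-40 and OSCA-32 effects against PBS differed for B2m by the test of the difference itself, which is the direct comparison of the lines since they share the PBS libraries. The effect was 2.11 in OSCA-40 and 0.75 in OSCA-32 exosomes on the log2 scale, a difference of 1.36 (limma adjusted p = 0.0396), and of 0.31 as deposited (adjusted p = 0.278). H2-T24 likewise differed by 1.86 (limma adjusted p = 0.0235), with effects of 1.81 in OSCA-40 and -0.05 in OSCA-32 exosomes. Both rest on 2 libraries a line. The B2m call held only without the first OSCA-32 library (adjusted p = 0.0486), and the H2-T24 call only without that library or the second OSCA-40 library, when single libraries were left out.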

How the results depend on the processing

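The B2m call in OSCA-40 against PBS held in all alternatives other than the values as deposited, from 1.85 to 2.19 with adjusted p up to 0.0278, and from 2.06 to 2.16 with 1 library left out. As deposited, signs turned for H2-D1 in OSCA-40 against PBS (-1.16) and against OSCA-32 (-0.15). They also turned for H2-T23 in OSCA-40 against PBS (-1.26), OSCA-32 against PBS (-0.31), both lines against PBS (-0.79), OSCA-40 against OSCA-32 (-0.95) and PBS against week 0 (0.023), and for H2-T24 in both lines against PBS (-0.21) and PBS against week 0 (0.042). H2-T23 in OSCA-40 against OSCA-32 was -0.15 with a filter of 1 and -0.036 with a filter of 5.

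Genes of the 5 that passed numbered 2 for both lines against PBS as deposited, H2-K1 and H2-D1, both lower, where scaled B2m alone passed, higher. In OSCA-40 against PBS the 2 that passed as deposited were likewise H2-K1 and H2-D1, both lower, not B2m and H2-T24. As deposited 6726 of all 7872 tested genes passed in OSCA-40 against PBS, 92 of them higher. For both lines 6033 passed, 95 of them higher, and between the lines 4638. The 2 of 5 is below the share over all genes and says nothing particular about these 5. In OSCA-40 against OSCA-32, where 2 passed, the number was 1 as deposited, 1 with a filter of 5, 0 without the trend, 1 with only the compared groups and 1 with the replicate block. The block changed no other such number. What the replicate numbers mark is not stated. Differences between the replicates of 1 group correlated with those of another at -0.0573 to 0.00595 over the tested genes. Many of these values are small whole numbers, so this cannot exclude a shared pool or batch. With 1 library left out, the lone library of its group was assumed to vary like the others. The number ranged from 1 to 2 in OSCA-40 against PBS, 0 to 1 for both lines against PBS and 0 to 2 in OSCA-40 against OSCA-32. H2-T23 then ranged from -0.52 to 1.05 in OSCA-40 against PBS, -0.43 to 0.94 in OSCA-32 against PBS, -0.14 to 0.65 for both lines, -0.77 to 0.80 between the lines and -0.31 to 0.25 in PBS against week 0. H2-T24 ranged from -0.40 to 0.29 in OSCA-32 against PBS and -0.10 to 0.091 in PBS against week 0. H2-D1 ranged from -0.20 to 0.12 for both lines and -0.16 to 0.61 in PBS against week 0, and H2-K1 from -0.84 to 0.44 between the lines. The causes were not tested. H2-K1 missed the filter without either PBS library, and H2-K1 and H2-D1 missed it with only the 2 lines fitted.

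Over all tested genes, calls in OSCA-40 against PBS numbered 542, against 276 to 2393 under the other scaled settings and 6726 as deposited. For OSCA-32 against PBS they numbered 87, against 37 to 121 and 1353. For both lines they numbered 353, against 139 to 1277 and 6033, and between the lines 204, against 65 to 1691 and 4638. For PBS against week 0 they numbered 15, against 2 to 15 and 12. The depth is unknown, and values under about 5 move by whole units.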
